A study of Homo sapiens with 6 samples.

Results

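RAB GTPases are small membrane switches that direct vesicle traffic. They were taken here as every row of the count table whose symbol is RAB followed by a number and at most 1 further letter, which gave 61 of 26410 rows, and 48 of the 61 passed the filter on low counts that left 13014 genes for testing. Each RAB protein cycles between a GDP-bound form, held in the cytosol by GDI, and a GTP-bound form that sits in a membrane through prenyl groups and recruits effectors such as tethers and motors. Exchange factors load GTP and GTPase-activating proteins (GAPs) speed up its hydrolysis by the RAB. Each RAB marks its own membranes along the secretory and endocytic routes. In myeloid cells RAB proteins are known for the transport and release of granules, for phagocytosis and for the recycling of surface receptors.

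RNA was sequenced from Kasumi-1, an established human acute myeloid leukaemia line with the RUNX1::RUNX1T1 fusion, in 3 libraries of cells given a lentiviral hairpin against PHF19 (shPHF19) and 3 libraries of control cells. PHF19 joins Polycomb repressive complex 2, which methylates histone H3, as one of its accessory proteins. The protocol names a scrambled hairpin for the control, while the treatment label of those samples reads WT, and in it all cells received puromycin (2 µg/ml) beginning 48 h after the hairpin and lasting 24 h or longer. The vector also carries a green fluorescent protein and a puromycin resistance cassette. There was 1 shPHF19 group and the sources used here do not state its hairpin sequence, so effects of the hairpin on other transcripts cannot be told apart from those of PHF19. The labels do not tie replicates to separate cultures, so the p-values rest on a spread between libraries that may be technical only.

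The libraries held 14229878 to 16615143 counts, and a gene with no count in a library could have stood at up to 0.177 to 0.223 CPM there (3 counts, counting error only). PHF19 itself stood at 41.1, 36.9 and 33.0 CPM (counts scaled to library size with TMM factors) in shPHF19 replicates 1, 2 and 3, against 168, 199 and 189 CPM in control replicates 1, 2 and 3 (log2 fold change -2.32, edgeR quasi-likelihood test, adjusted p = 3.55e-25). All 8 of the listed myeloid blast markers had counts, and they summed to 12700 to 13500 CPM in shPHF19 libraries, against 8160 to 8450 CPM in control libraries. Most of that sum was MPO, at 8390 ± 654 CPM in shPHF19 cells and 4280 ± 244 CPM in control cells (SD, n = 3 each), and of the 8 markers 4 were higher and 3 lower, PTPRC among the lower ones (-1.38). The 7 lymphoid markers summed to 95 to 103 CPM in shPHF19 libraries and 86.3 to 102 CPM in control libraries, and all 7 had counts. The 6 epithelial and fibroblast markers, also all counted, summed to 83.2 to 99.3 CPM in shPHF19 libraries and 55.6 to 70.5 CPM in control libraries. The 5 counted markers of the erythroid and megakaryocyte list summed to 19.7 to 23.8 CPM in shPHF19 libraries and 28.9 to 31.8 CPM in control libraries, and 1 of the 2 tested was lower. The part of any of these lists in the results on RAB genes was not tested. In bulk RNA, fewer cells with a transcript and less transcript per cell cannot be told apart.

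Of the 48 tested RAB genes, 11 were higher and 22 were lower in shPHF19 cells at an adjusted p under 0.05 (edgeR, adjusted over all genes tested), and 15 did not pass. That is 22.9% higher and 45.8% lower, where over all genes tested 29.4% were higher and 30.9% were lower and 60.2% were called either way. The median log2 fold change was -0.27 over the RAB genes and -0.03 over all genes. With a change of at least 2-fold required as well, 1 RAB gene was higher (2.08%, against 5.72% of all genes) and 8 were lower (16.7%, against 10.9%). The values of the groups did not overlap for 32 of the 48 (66.7%, against 63.5% of all genes). The split moved with the scaling: with library totals in place of TMM factors 7 RAB genes were higher and 26 lower, the median of all genes shifted to -0.24 and that of the RAB genes to -0.48, and 19.9% of all genes were higher and 43.2% lower.

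**Figure D1:**
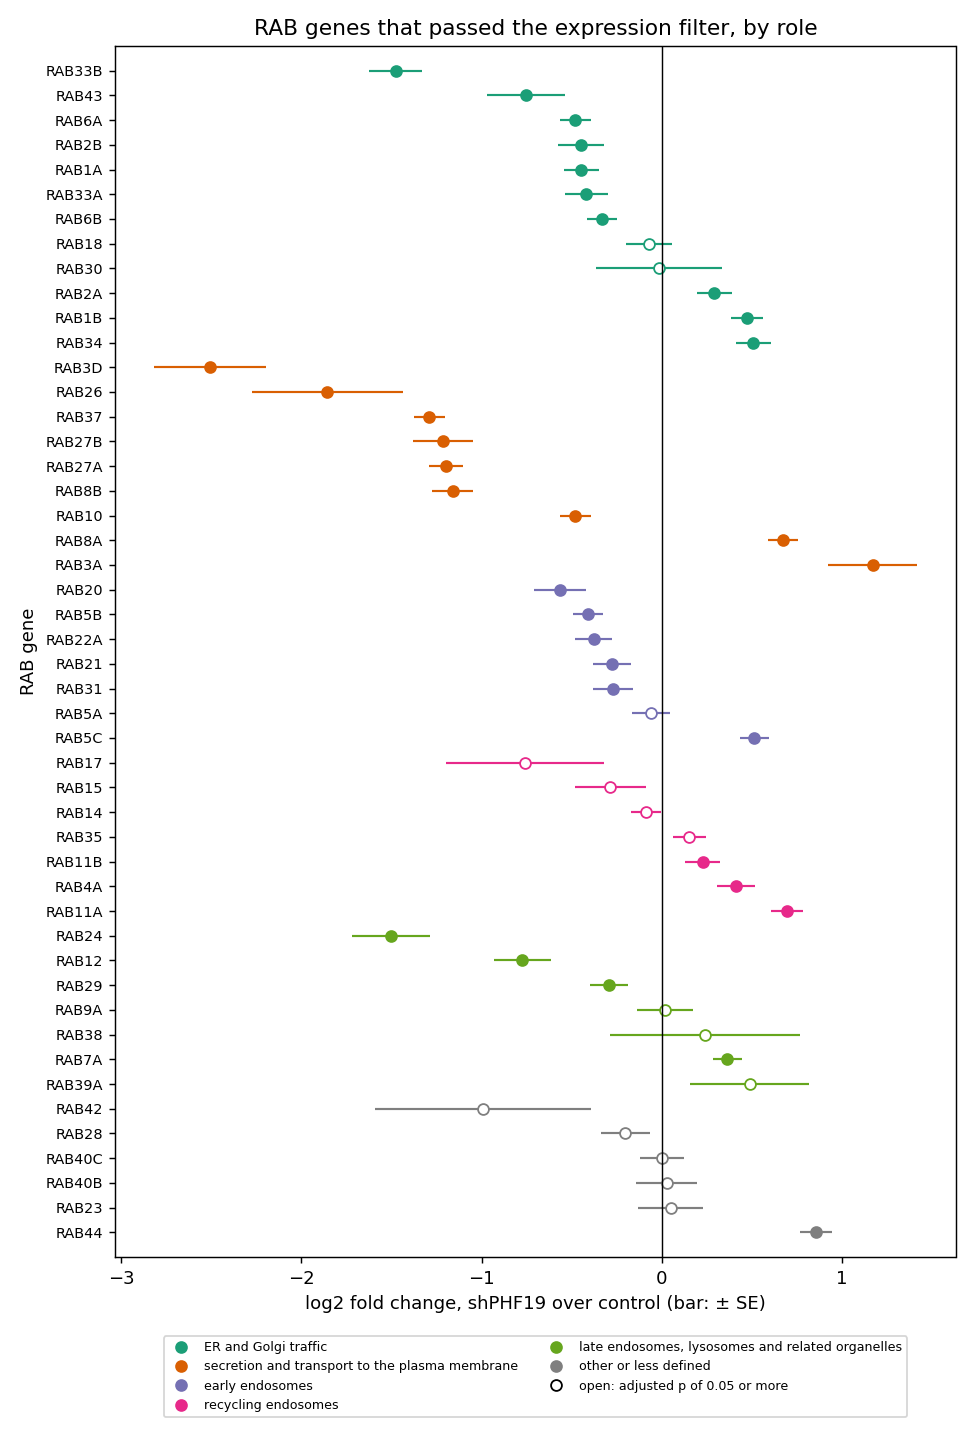
Log2 fold change (shPHF19 over control, x axis) of each of the 48 RAB genes that passed the filter, grouped by role and coloured by it; bars are ± 1 standard error from the edgeR fit of 3 libraries a group, and open circles did not pass the test. RAB genes of secretion reach furthest on either side, from -2.51 (RAB3D) to 1.17 (RAB3A), and no gene of the recycling endosome is called lower in the fit shown, although RAB14, RAB15 and RAB17 were under other settings.

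Close paralogs were called in opposite directions in 5 families. In the RAB1, RAB2, RAB3, RAB5 and RAB8 families, each made of proteins that share a number and most of their sequence, at least 1 member was called higher and at least 1 lower. In the RAB6, RAB27 and RAB33 families members were called only lower, in RAB11 only higher, and in RAB40 none was called. Over all genes tested, 29.4% were higher and 30.9% lower, and whether opposite calls are more frequent among paralogs was not tested. RAB8 and RAB3 hold the pairs with the largest difference in log2 fold change, so the 250 bases upstream of the RefSeq start of RAB8A, RAB8B, RAB3A and RAB3D are shown, with capitals marking GC boxes (GGGCGG) and CCAAT boxes (CCAAT) on either strand. RAB8A and RAB3A were higher and RAB8B and RAB3D lower in shPHF19 cells. The sequences are those of RefSeq on GRCh38.p14, written along the strand of the gene. The windows are RAB8A at chr19:16111639-16111888 and RAB8B at chr15:63189356-63189605, both on the plus strand. RAB3A is at chr19:18204043-18204292 and RAB3D at chr19:11339658-11339907, both on the minus strand. The GENCODE genes used here for exon length start elsewhere. RAB8A starts there at 16111629 and RAB3D, on the minus strand, at 11346270, so both windows lie wholly inside these genes. RAB8B starts there at 63189469 and RAB3A, on the minus strand, at 18204074, so those windows lie partly inside. Which starts are used in these cells was not tested.
RAB8A: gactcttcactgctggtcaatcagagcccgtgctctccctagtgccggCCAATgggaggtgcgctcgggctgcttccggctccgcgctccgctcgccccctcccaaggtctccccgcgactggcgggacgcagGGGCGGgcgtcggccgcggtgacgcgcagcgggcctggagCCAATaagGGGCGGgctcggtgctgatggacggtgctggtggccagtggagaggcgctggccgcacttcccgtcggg
RAB8B: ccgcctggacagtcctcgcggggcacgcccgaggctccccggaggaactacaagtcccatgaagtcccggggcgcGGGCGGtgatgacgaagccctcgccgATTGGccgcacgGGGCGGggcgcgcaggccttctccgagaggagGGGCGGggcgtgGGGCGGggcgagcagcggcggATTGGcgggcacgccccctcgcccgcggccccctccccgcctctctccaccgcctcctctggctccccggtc
RAB3A: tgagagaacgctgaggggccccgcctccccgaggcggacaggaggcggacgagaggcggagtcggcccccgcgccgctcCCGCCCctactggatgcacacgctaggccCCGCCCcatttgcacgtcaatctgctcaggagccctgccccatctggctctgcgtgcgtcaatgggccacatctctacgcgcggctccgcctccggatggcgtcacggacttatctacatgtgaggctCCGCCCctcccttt
RAB3D: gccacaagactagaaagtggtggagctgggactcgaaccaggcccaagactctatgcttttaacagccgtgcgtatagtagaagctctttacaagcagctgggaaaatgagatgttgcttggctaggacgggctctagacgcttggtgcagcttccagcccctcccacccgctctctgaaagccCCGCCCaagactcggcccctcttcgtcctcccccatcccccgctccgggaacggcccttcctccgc

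The window of RAB8A held 2 GC boxes and 2 CCAAT boxes, and that of RAB8B 4 GC boxes and 2 CCAAT boxes. RAB3A had 3 GC boxes and RAB3D had 1, and neither window held a CCAAT box. Their GC content was 72.4% for RAB8A, 77.2% for RAB8B, 68.4% for RAB3A and 59.6% for RAB3D. The RefSeq table matched 48 of the 61 RAB genes by symbol, with 68 promoters in all. A promoter here is the 250 bases before a RefSeq start. A GC box stood in 9 of 11 promoters of RAB genes called higher (81.8%), in 21 of 27 of those called lower (77.8%) and in 14 of 18 of those that did not pass (77.8%). Among RAB genes not tested it stood in 6 of 12 promoters (50%). Of all 35116 promoters of the same length 42.6% hold it, and these include promoters of genes that were not tested here. The E-box CACGTG was in 1 of 11 promoters of higher and 3 of 27 of lower RAB genes (6.34% of all promoters), and the RUNX core TGTGGT in 0 of 11 of the higher and 2 of 27 of the lower (11% of all). The cyclic AMP response element TGACGTCA and the ATF4 composite TGATGNAA were in no promoter of a called RAB gene (1.65% and 3.14% of all). Both strands were searched for each motif, and several promoters belong to the same gene.

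RAB genes of secretion and of transport to the plasma membrane formed the role with the highest share called: all 9 of its tested members (of 12) were called, where 60.2% of all genes were, with 7 lower and 2 higher. Of the 7, 6 fell by more than 2-fold, a size of fall that 10.9% of all genes showed. The median log2 fold change of the 9 was -1.20. Roles were assigned with earlier results of these data known, and the shares depend on that assignment. RAB27A docks secretory granules at the plasma membrane and its loss causes Griscelli syndrome. Its values were 63.3, 68.7 and 79.6 CPM in shPHF19 replicates 1, 2 and 3, against 176, 148 and 162 CPM in control replicates 1, 2 and 3, so the groups lay well apart. The fold change was 2.29-fold lower (log2 -1.20, SE 0.0934, edgeR adjusted p = 1.83e-15). RAB27B, its paralog, known for granule release in platelets and mast cells, had 7.42, 9.14 and 10.1 CPM in shPHF19 cells and 24.3, 15.7 and 21.9 CPM in control cells (-1.21, SE 0.165, edgeR adjusted p = 1.69e-08). Here and in what follows, values in a row are those of replicates 1, 2 and 3. Both RAB27 genes fell, and RAB27A made up 91.4 ± 0.494% of their summed level per length (RPKM, CPM per kb of exon) in shPHF19 cells and 91.3 ± 1.12% in control cells (SD, n = 3 each).

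RAB37, a RAB of secretory granules in mast cells, is one of the most abundant RAB transcripts of these cells. It stood at 207, 186 and 175 CPM in shPHF19 cells, against 438, 489 and 459 CPM in control cells, and every shPHF19 value was far under every control value. Its log2 fold change was -1.29 (SE 0.0844, edgeR adjusted p = 4.60e-18), the smallest p of any RAB gene. Per length it averaged 37.3 ± 3.19 RPKM in shPHF19 cells and 91.1 ± 5.07 RPKM in control cells (SD, n = 3 each). The gene lies on the plus strand of chromosome 17 from 74670578 to 74747335 (GRCh38, GENCODE 29) and shares no exon base with another counted gene. RAB26, which acts on secretory granules and synaptic vesicles, was low throughout, with 0.668, 0.777 and 0.688 CPM in shPHF19 cells and 2.28, 3.18 and 2.33 CPM in control cells (-1.86, SE 0.418, edgeR adjusted p = 1.65e-04).

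RAB3D, a RAB of regulated exocytosis in gland and immune cells, had the largest fold change of all 48. It was at 1.26, 0.648 and 1.17 CPM in shPHF19 cells and at 6.09, 6.42 and 4.93 CPM in control cells (5.68-fold lower, log2 -2.51, SE 0.313, edgeR adjusted p = 1.96e-09). RAB3A, known for the release of synaptic vesicles, went the other way with 6.16, 5.77 and 6.47 CPM in shPHF19 cells, against 2.34, 2.53 and 3.31 CPM in control cells (2.25-fold higher, log2 1.17, SE 0.247, edgeR adjusted p = 6.69e-05). The family sum was 3.62 ± 0.272 RPKM in shPHF19 cells and 2.84 ± 0.130 RPKM in control cells. RAB3A made up 93.4 ± 1.88% of it in shPHF19 cells and 52.7 ± 7.72% in control cells, and RAB3D 6.36 ± 1.74% in shPHF19 cells and 46.6 ± 7.65% in control cells (SD, n = 3 each). RAB3A shares 9.08% of its exon bases with MPV17L2 on the opposite strand, which was also higher (log2 fold change 0.80), and the sources used here do not state whether reads were counted by strand, so the part of MPV17L2 in the RAB3A value was not tested. RAB3D shares 3.26% of its exon bases with TMEM205 (-0.47) and 3.26% with CCDC159 (-0.70).

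RAB8A and RAB8B both carry vesicles from the Golgi to the plasma membrane and to the primary cilium. RAB8A had 218, 225 and 205 CPM in shPHF19 cells and 132, 138 and 137 CPM in control cells (log2 0.67, SE 0.0828, edgeR adjusted p = 1.47e-09). RAB8B had 24.4, 34.2 and 32.5 CPM in shPHF19 cells and 75.6, 66 and 62.4 CPM in control cells (-1.16, SE 0.114, edgeR adjusted p = 2.48e-12). Neither pair of groups overlapped, as was so for 63.5% of all genes. RAB8A thus made up 87.7 ± 1.93% of the family's RPKM in shPHF19 cells and 66.7 ± 2.76% in control cells (SD, n = 3 each), while the family sum was 47.5 ± 2.22 RPKM in shPHF19 cells and 39.2 ± 0.714 RPKM in control cells. The coding sequences of RAB8A and RAB8B were 78.5% identical with no identical run above 17 bases, and those of RAB3A and RAB3D 79.8% identical with no run above 35 bases. RAB10, which moves glucose transporter vesicles in fat cells, had 136, 145 and 153 CPM in shPHF19 cells and 220, 199 and 186 CPM in control cells (-0.48).

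**Figure D2:**
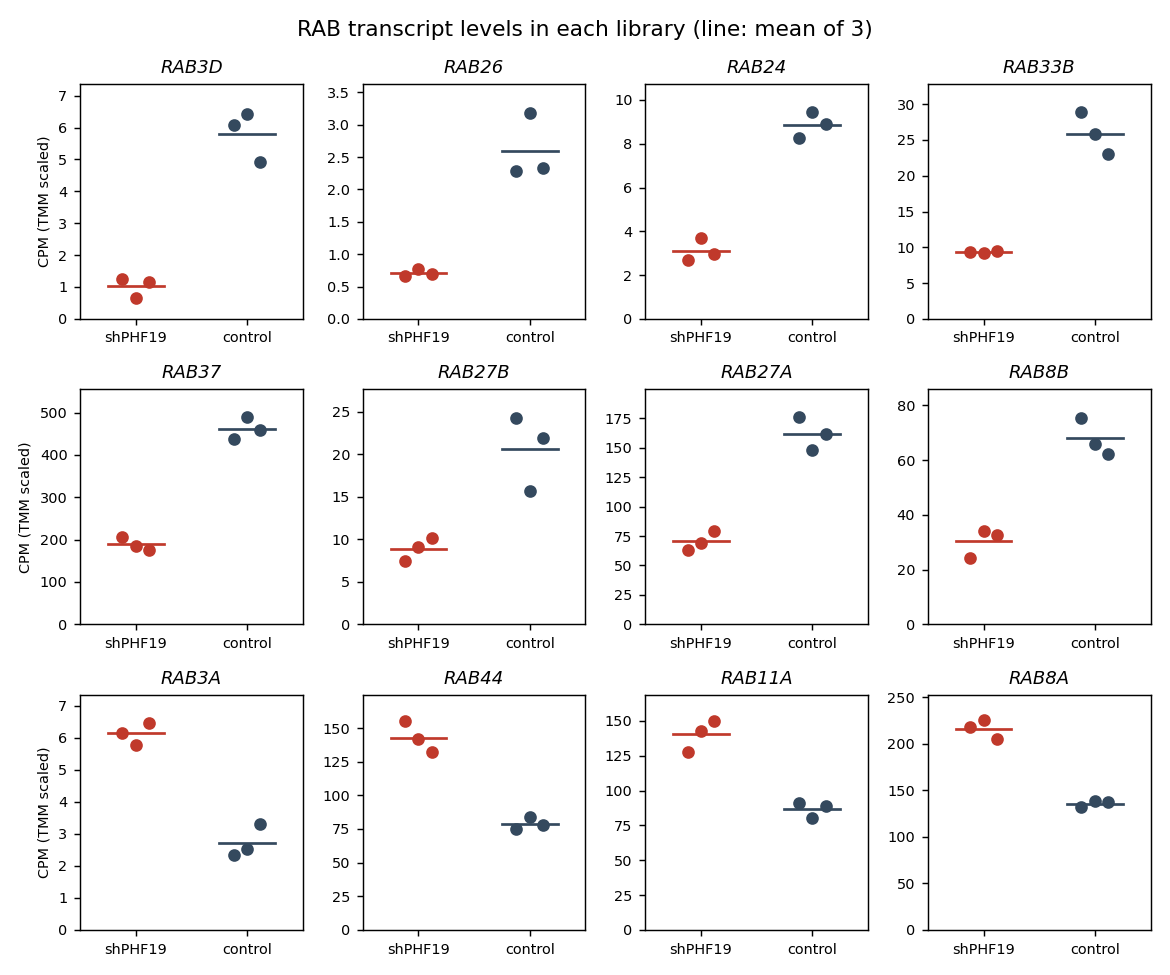
TMM-scaled CPM (y axis, a scale for each gene that starts at 0) of 12 RAB genes in the 3 shPHF19 and 3 control libraries; points are libraries and lines are group means. The genes were chosen among those with large changes, so the lack of overlap in every panel follows in part from the choice (63.5% of all genes had none). RAB3A, RAB44, RAB11A and RAB8A are higher in shPHF19 cells while the other 8 are lower.

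Summed per length, RAB transcripts stood at 941 ± 9.35 RPKM in shPHF19 cells and 941 ± 20 RPKM in control cells (SD, n = 3 each). Without division by length they summed to 3410 ± 17.3 CPM in shPHF19 cells and 3630 ± 72.8 CPM in control cells. The makeup of the RPKM sum differed. RAB genes of secretion made up 15.1 ± 0.205% of the RPKM sum in shPHF19 cells and 23.5 ± 0.210% in control cells, with 142 ± 1.36 RPKM in shPHF19 cells against 221 ± 4.84 RPKM in control cells. RAB37 carried much of the gap, since without it the secretion sum was 105 ± 4.15 RPKM in shPHF19 cells and 130 ± 7.25 RPKM in control cells. Late endosomal RABs summed to 183 ± 4.16 RPKM in shPHF19 cells and 156 ± 2.90 RPKM in control cells, and early endosomal RABs to 150 ± 1.85 RPKM in shPHF19 cells and 135 ± 1.52 RPKM in control cells. Of the late endosomal sum, RAB7A alone held 158 RPKM in shPHF19 cells and 123 RPKM in control cells. Of the early endosomal sum, RAB5C alone held 97.3 RPKM in shPHF19 cells and 68.3 RPKM in control cells. Each was the only gene of its role called higher, and the other called genes of both roles were lower. Recycling RABs summed to 164 ± 2.60 RPKM in shPHF19 cells, against 145 ± 2.59 RPKM in control cells. The ER and Golgi sums were 247 ± 10.5 RPKM in shPHF19 cells and 243 ± 5.65 RPKM in control cells. Sums depend on the scaling, and with library totals only the ratio of shPHF19 to control was 0.867 for all RAB genes, 0.557 for secretion, 0.980 for recycling, 0.963 for early endosomes and 1.02 for late endosomes. The shares of the RAB sum do not depend on it.

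**Figure D3:**
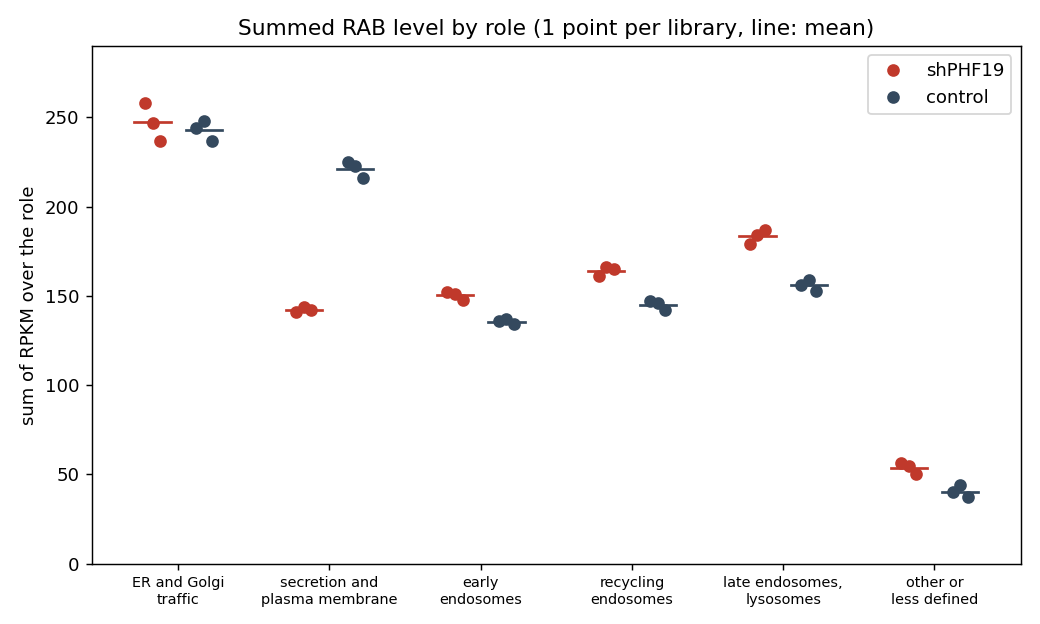
Summed RPKM (y axis, linear) of the RAB genes of each role in the 3 shPHF19 and 3 control libraries; points are libraries and lines are group means. The secretion sum lies at 141 to 144 RPKM in shPHF19 libraries and 216 to 225 RPKM in control libraries, while the ER and Golgi sums overlap.

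Per length RAB7A was the most abundant RAB transcript in either group, at 158 ± 3.72 RPKM in shPHF19 cells and 123 ± 2.35 RPKM in control cells. RAB1B followed at 104 ± 12.2 RPKM in shPHF19 cells and 74.7 ± 4.86 RPKM in control cells, and RAB5C at 97.3 ± 2.35 RPKM in shPHF19 cells and 68.3 ± 1.36 RPKM in control cells. In shPHF19 cells RAB37 stood under both of them and under RAB14, whereas in control cells it stood above all 3. RAB14 was at 51.7 ± 3.54 RPKM in shPHF19 cells and 55 ± 3.07 RPKM in control cells (SD, n = 3 for each value). In shPHF19 cells the neighbours of RAB37 in the order were RAB8A (41.6 ± 1.94 RPKM), RAB10 (39.8 ± 2.45 RPKM) and RAB35 (35 ± 4.75 RPKM), which lay within about the spread of the libraries from each other.

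RAB genes of the ER and Golgi moved in both directions: of 12 tested (of 16), 7 were lower, 3 were higher and 2 did not pass, with a median log2 fold change of -0.38. That is 58.3% lower and 25% higher, against 30.9% and 29.4% of all genes. RAB33B, a Golgi RAB that binds the autophagy protein ATG16L1, changed most. Its values were 9.28, 9.20 and 9.43 CPM in shPHF19 cells and 28.9, 25.8 and 23.0 CPM in control cells (2.78-fold lower, log2 -1.48, SE 0.146, edgeR adjusted p = 3.55e-12). RAB33A, its paralog, fell less (-0.42), so RAB33A made up 91.8 ± 0.709% of the family's RPKM in shPHF19 cells and 84.4 ± 1.2% in control cells. RAB6A and RAB6B, which carry retrograde traffic at the Golgi, both fell, by 0.48 and 0.33 on the log2 scale. RAB6A had 114, 128 and 133 CPM in shPHF19 cells and 187, 174 and 163 CPM in control cells (edgeR adjusted p = 4.98e-06). Its coding sequence is 96.3% identical to that of RAB6C, so its count depends on how shared reads were treated, although RAB6C held 3 counts in shPHF19 libraries and 1 in control libraries.

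RAB1A and RAB1B, which act between the ER and the Golgi, parted. RAB1A had 62.1, 62.0 and 74.4 CPM in shPHF19 cells and 98.3, 83.5 and 88.7 CPM in control cells (-0.45, edgeR adjusted p = 9.73e-05). RAB1B had 230, 211 and 182 CPM in shPHF19 cells and 139, 156 and 155 CPM in control cells (0.47, edgeR adjusted p = 9.48e-06). RAB1B made up 83.7 ± 3.12% of the family's RPKM in shPHF19 cells and 73.2 ± 2.92% in control cells. RAB1A shares 22.9% of its exon bases with CEP68 on the opposite strand, which was also lower (-0.89), and the part of CEP68 in the RAB1A value was not tested.

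The RAB2 genes, which act between the ER and the Golgi, showed the same arrangement at a smaller size. RAB2A had 70.8, 75.0 and 80.9 CPM in shPHF19 cells and 68.4, 59.9 and 57.1 CPM in control cells (0.29, edgeR adjusted p = 0.0092). RAB2B had 18.8, 19.8 and 23.2 CPM in shPHF19 cells and 29.7, 26.7 and 28.0 CPM in control cells (-0.45, edgeR adjusted p = 0.00222). RAB2A made up 70.1 ± 0.969% of the family's RPKM in shPHF19 cells and 58.3 ± 1.55% in control cells (SD, n = 3 each). The call of RAB2A was lost with library totals only (0.09, edgeR adjusted p = 0.457), with upper-quartile factors (0.19, edgeR adjusted p = 0.0900) and without control replicate 3 (0.24, edgeR adjusted p = 0.0718), with an adjusted p from 1.19e-05 over all alternatives. RAB34, which acts at the Golgi and in cilium formation, was higher (0.51), and RAB43, another Golgi RAB, was lower (-0.76). RAB43 shares 79.3% of its exon bases with the readthrough row ISY1-RAB43, which had no count. RAB18, a RAB of the ER and lipid droplets, and RAB30, a Golgi RAB, did not pass (-0.07 and -0.01).

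Early endosomal RABs were lower in 5 of 7, higher in 1, and 1 did not pass, with a median log2 fold change of -0.28. That is 71.4% lower and 14.3% higher, against 30.9% and 29.4% of all genes. The RAB5 proteins drive the fusion of early endosomes, and their 3 genes differed in direction. RAB5C had 273, 272 and 261 CPM in shPHF19 cells and 187, 193 and 186 CPM in control cells (0.51, SE 0.0807, edgeR adjusted p = 4.20e-07). RAB5B had 134, 125 and 119 CPM in shPHF19 cells and 159, 176 and 167 CPM in control cells (-0.41, SE 0.0848, edgeR adjusted p = 4.97e-05). RAB5A had 40.8, 42.9 and 47.6 CPM in shPHF19 cells and 45.9, 46.3 and 44.6 CPM in control cells, with overlapping groups (-0.06, edgeR adjusted p = 0.64, or -0.26 and 0.0279 with library totals only, with 0.965 as the highest over all alternatives). The share of RAB5C in the family's RPKM was 76.0 ± 0.434% in shPHF19 cells and 64.6 ± 0.488% in control cells (SD, n = 3 each), and that of RAB5B was 14.9 ± 0.622% in shPHF19 cells and 24.0 ± 0.720% in control cells.

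The other early endosomal RABs fell by less than 2-fold. RAB20, which acts in phagosome maturation, changed by -0.56, and RAB22A, which acts in endosomal sorting, by -0.38. RAB21, which moves integrins, changed by -0.28 with overlapping groups, and RAB31, which acts between the Golgi and endosomes, by -0.27 (edgeR adjusted p = 0.0201 and 0.0342). RAB31 had 30.4, 36 and 36.7 CPM in shPHF19 cells and 43.5, 38.5 and 42.3 CPM in control cells. Leaving out control replicate 1 ended the call of RAB21 (-0.20, edgeR adjusted p = 0.122), as did leaving out control replicate 3 (-0.26, adjusted p = 0.0719), shPHF19 replicate 1 (-0.19, adjusted p = 0.114) and shPHF19 replicate 2 (-0.28, adjusted p = 0.056), with a range of 2.18e-04 to 0.352 over the alternatives. RAB31 lost its call when any of the same libraries was left out: it stood at -0.23 (edgeR adjusted p = 0.101) with control replicate 1 left out, -0.25 (adjusted p = 0.103) with control replicate 3, -0.18 (adjusted p = 0.187) with shPHF19 replicate 1 and -0.30 (adjusted p = 0.0607) with shPHF19 replicate 2, and the adjusted p of all alternatives lay between 4.60e-04 and 0.187. DESeq2 called neither RAB21 (adjusted p = 0.0523) nor RAB31 (adjusted p = 0.0712). In limma-voom with trends of exon length and GC content taken out, RAB22A was no longer called (-0.12, adjusted p = 0.174, from 1.09e-05 over the alternatives), nor were RAB21 (0.0759, adjusted p = 0.352) and RAB31 (-0.19, adjusted p = 0.0564).

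**Figure D4:**
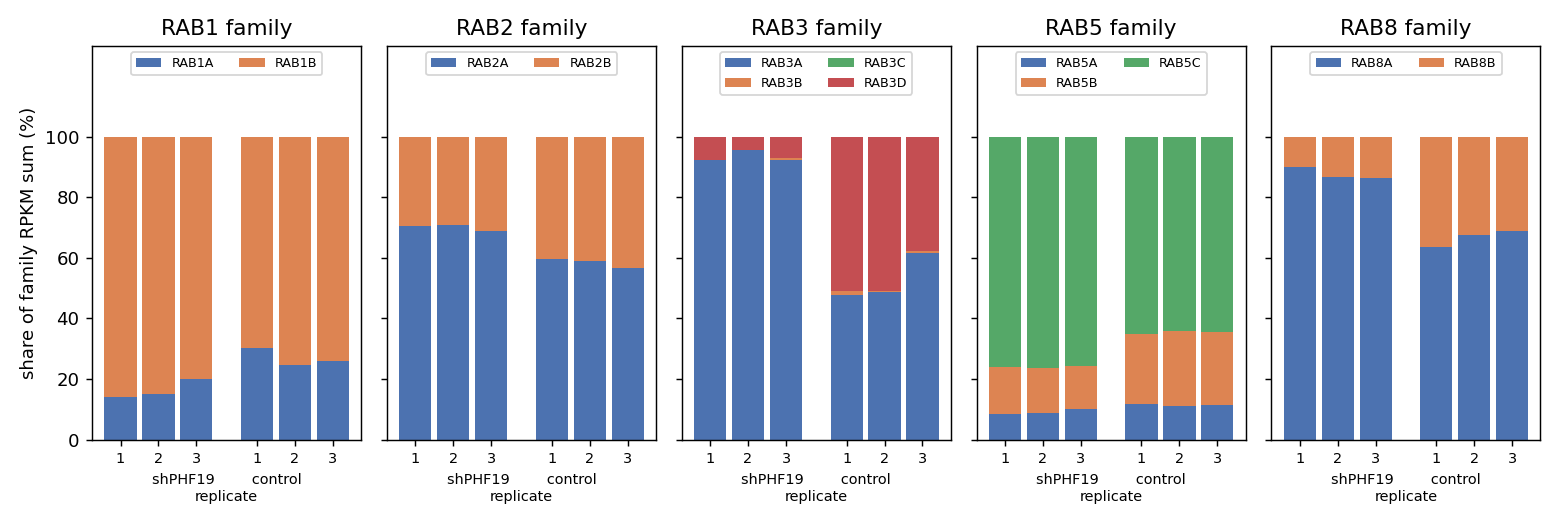
Share of the summed RPKM of each family (y axis, %) held by each member in the 3 shPHF19 and 3 control libraries, for the 5 families with members called in both directions; bars stack to 100%. RAB8A, RAB3A, RAB1B, RAB2A and RAB5C hold a larger share in every shPHF19 library than in any control library.

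Recycling endosomal RABs were higher in 3 of 7 tested (of 9) and lower in 0, with a median log2 fold change of 0.15. That is 42.9% higher and 0% lower, against 29.4% and 30.9% of all genes. RAB14, RAB15 and RAB17 were called lower under other settings, given with each gene. RAB11A, which returns receptors from the perinuclear recycling endosome, had 128, 143 and 150 CPM in shPHF19 cells and 90.9, 80.3 and 89.0 CPM in control cells (0.69, SE 0.0894, edgeR adjusted p = 4.48e-09). RAB4A, which serves the fast recycling route, had 63.0, 81.8 and 88.3 CPM in shPHF19 cells and 63.2, 56.6 and 55.7 CPM in control cells (0.41, SE 0.104, edgeR adjusted p = 6.97e-04). Its shPHF19 replicate 1 lay within the control values. RAB4A shares 19.6% of its exon bases with SPHAR on the same strand. With library totals only RAB4A lost its call (0.21, edgeR adjusted p = 0.0944, from 7.04e-07 over the alternatives), and RAB11A kept its own.

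RAB11B, the paralog of RAB11A, was the called gene nearest to the threshold, with 73.5, 66.9 and 60.7 CPM in shPHF19 cells and 55.3, 59.1 and 57.4 CPM in control cells (0.23, edgeR adjusted p = 0.0438). It was not called when control replicate 1 (0.20, edgeR adjusted p = 0.106) or 3 (0.23, adjusted p = 0.0944) was left out, nor when shPHF19 replicate 1 (0.16, adjusted p = 0.185) or 2 (0.23, adjusted p = 0.103) was, nor with library totals only (0.02, adjusted p = 0.872). The adjusted p of RAB11B spanned 0.0123 to 0.936 over the alternatives. RAB14, a RAB of the Golgi and endosomes, and RAB35, a RAB of the plasma membrane and cytokinesis, did not pass. RAB14 had 205, 228 and 234 CPM in shPHF19 cells and 250, 236 and 224 CPM in control cells (-0.09), and it was called lower with upper-quartile factors (-0.19, edgeR adjusted p = 0.0433) and with library totals only (-0.29, edgeR adjusted p = 0.00231, with 0.8 as the highest of any alternative). RAB35 had 161, 137 and 124 CPM in shPHF19 cells and 115, 136 and 129 CPM in control cells (0.15, edgeR adjusted p = 0.149), and it was called without shPHF19 replicate 3 (0.24, edgeR adjusted p = 0.0209, with 0.663 as the highest of any alternative). RAB17, an epithelial RAB, had 0.891, 0.972 and 0.964 CPM in shPHF19 cells and 2.21, 1.30 and 1.30 CPM in control cells (-0.76, edgeR adjusted p = 0.132), and it was called lower by limma-voom without length and GC trends (-0.83, adjusted p = 0.0454, with 0.494 as the highest of any alternative). RAB15, known for neuronal recycling, did not pass (-0.29), and was called lower with totals alone (-0.49, adjusted p = 0.0343) and without shPHF19 replicate 3 (-0.56, edgeR adjusted p = 0.0179, with 0.811 as the highest of any alternative).

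Late endosomal and lysosomal RABs were lower in 3 of 7 tested (of 10) and higher in 1, with a median of 0.02. That is 42.9% lower and 14.3% higher, against 30.9% and 29.4% of all genes. RAB7A, which takes late endosomes to fusion with lysosomes, had 419, 433 and 439 CPM in shPHF19 cells and 329, 341 and 332 CPM in control cells (0.36, SE 0.0792, edgeR adjusted p = 1.01e-04). This call was lost with library totals only (0.16, edgeR adjusted p = 0.0675, from 1.52e-08 over the alternatives). RAB24, a RAB tied to autophagy, had 2.67, 3.69 and 2.96 CPM in shPHF19 cells and 8.24, 9.43 and 8.88 CPM in control cells (2.83-fold lower, log2 -1.50, SE 0.217, edgeR adjusted p = 6.72e-08). RAB24 shares 44.8% of its exon bases with MXD3 on the same strand, and MXD3 stood at 17.8 CPM in shPHF19 cells and 16.6 CPM in control cells (log2 fold change 0.10, edgeR adjusted p = 0.56). RAB12, which takes the transferrin receptor towards degradation, had 8.91, 11.7 and 13.0 CPM in shPHF19 cells and 22.1, 18.0 and 17.6 CPM in control cells (-0.77, SE 0.157, edgeR adjusted p = 3.44e-05).

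RAB29, which brings the kinase LRRK2 to Golgi and lysosomal membranes, was lower (-0.29, edgeR adjusted p = 0.0143). That call ended when replicate 2 of the control (-0.23, edgeR adjusted p = 0.0894) or of shPHF19 (-0.26, edgeR adjusted p = 0.0932) was left out, with an adjusted p from 9.91e-05 over the alternatives. RAB9A, which returns mannose 6-phosphate receptors to the Golgi, RAB38, a melanosome RAB, and RAB39A did not pass (0.02, 0.24 and 0.49).

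Of the remaining RAB genes, 1 of 6 tested (of 7) was called (16.7%, against 60.2% of all genes). RAB44, a large RAB with EF hands known from mouse mast cells and osteoclasts, had 155, 142 and 132 CPM in shPHF19 cells and 75.0, 84.0 and 78.1 CPM in control cells (1.81-fold higher, log2 0.85, SE 0.0894, edgeR adjusted p = 1.78e-11). RAB42 was at 0.223, 1.04 and 0.138 CPM in shPHF19 cells and 0.738, 1.47 and 0.648 CPM in control cells, with overlapping groups (-0.99, edgeR adjusted p = 0.15), and it was called without shPHF19 replicate 2 (-2.37, edgeR adjusted p = 0.0116, with 0.564 as the highest of any alternative). RAB23, which acts in Hedgehog signalling, RAB28, a ciliary RAB, and RAB40B and RAB40C, which join ubiquitin ligases, did not pass (0.05, -0.20, 0.03 and -2e-04), and RAB28 was called lower with upper-quartile factors (-0.30, edgeR adjusted p = 0.0488) and with library totals only (-0.41, edgeR adjusted p = 0.0108, with 0.571 as the highest of any alternative). RAB23 shares 57.7% of its exon bases with BAG2 on the opposite strand. BAG2 was higher, at 31.5 CPM in shPHF19 cells and 18.7 CPM in control cells (0.75, edgeR adjusted p = 2.12e-06). The part of BAG2 in the RAB23 value was not tested.

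The 13 RAB genes that were not tested had few counts or none in every library. RAB3C, RAB4B and RAB40A had no count in any library. RAB4B shares 36.8% of its exon bases with 2 readthrough rows that had no count either, and whether its count of 0 reflects its expression was not tested. The other 10 had at most 15 counts over the shPHF19 libraries and at most 16 over the control libraries, both in RAB41. RAB36 had 1 count over the shPHF19 libraries and 14 over the control libraries, and RAB9B 0 over the shPHF19 and 7 over the control libraries. RAB3B (5 in shPHF19, 13 in control), RAB13 (8 in shPHF19, 15 in control) and RAB25 (8 in shPHF19, 12 in control) were counted in both groups. RAB19, RAB32, RAB39B and RAB6C had at most 3 counts over the shPHF19 libraries and at most 4 over the control libraries.

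Genes that act on RAB proteins were counted from lists of 177 genes in 6 classes, of which 155 were tested, with 38 higher and 55 lower, or 60.0% called, close to the 60.2% of all genes (29.4% higher and 30.9% lower). Among the 8 genes of prenylation, escort and GDI, 3 were higher and 2 lower. RABGGTA, the alpha subunit of the RAB prenyl transferase, had 46.0, 42.6 and 39.9 CPM in shPHF19 cells and 22.2, 24.4 and 23.3 CPM in control cells (0.88, edgeR adjusted p = 6.96e-09). CHML, an escort protein, was also higher (0.56), and RABIF, a chaperone of RAB proteins, was lower (-0.72). Exchange factors were higher in 13 and lower in 18 of 47, with the smallest adjusted p in TRAPPC6B (-1.36), a subunit of the TRAPP complexes, RIN3 (-1.37), which acts on RAB5 proteins, and RAB3IL1 (-2.22), which acts on RAB8 proteins. RAB3IL1 had 2.52, 2.66 and 2.07 CPM in shPHF19 cells and 8.85, 13.7 and 11.2 CPM in control cells. GAPs were higher in 8 and lower in 10 of 37, led by TBC1D20 (-1.03), a GAP for RAB1, RABGAP1 (-1.30) and TBC1D8 (-1.11). With library totals only, 5 exchange factors were higher and 27 lower, and 1 GAP was higher and 21 lower. Under that scaling 19.9% of all genes were higher and 43.2% lower.

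Effectors were lower in 23 and higher in 7 of 52 tested (44.2% and 13.5%, where 30.9% of all genes were lower and 29.4% higher), with a median log2 fold change of -0.19, against -0.03 over all genes. OPTN, or optineurin, an effector of RAB8 and an autophagy receptor, was lowest with 1.63, 2.01 and 3.17 CPM in shPHF19 cells and 28.1, 21.7 and 26.2 CPM in control cells (11.1-fold lower, log2 -3.47, SE 0.197, edgeR adjusted p = 2.95e-20). MICAL2, an actin oxidoreductase, was at -2.12. SYTL1, a synaptotagmin-like effector of RAB27, had 23.4, 19.0 and 17.3 CPM in shPHF19 cells and 52.3, 52.3 and 53.9 CPM in control cells (-1.41, edgeR adjusted p = 1.71e-14). The other listed effectors of RAB27 were looked at after their values were seen. SYTL2, SYTL3 and EXPH5 were lower (-2.59, -1.29 and -2.05), while UNC13D, or Munc13-4, which primes granules for fusion, was higher (0.71). The fold changes of SYTL2 and EXPH5 rest on few counts. SYTL2 had 4, 1 and 4 counts in shPHF19 libraries and 22, 24 and 17 in control libraries. EXPH5 had 12, 2 and 5 counts in shPHF19 libraries and 24, 34 and 32 in control libraries. UNC13D had 291, 262 and 232 CPM in shPHF19 cells and 144, 162 and 172 CPM in control cells. SYTL4, SYTL5, MYRIP, MLPH and RPH3AL had under 1 CPM in every library and were not tested.

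**Figure D5:**
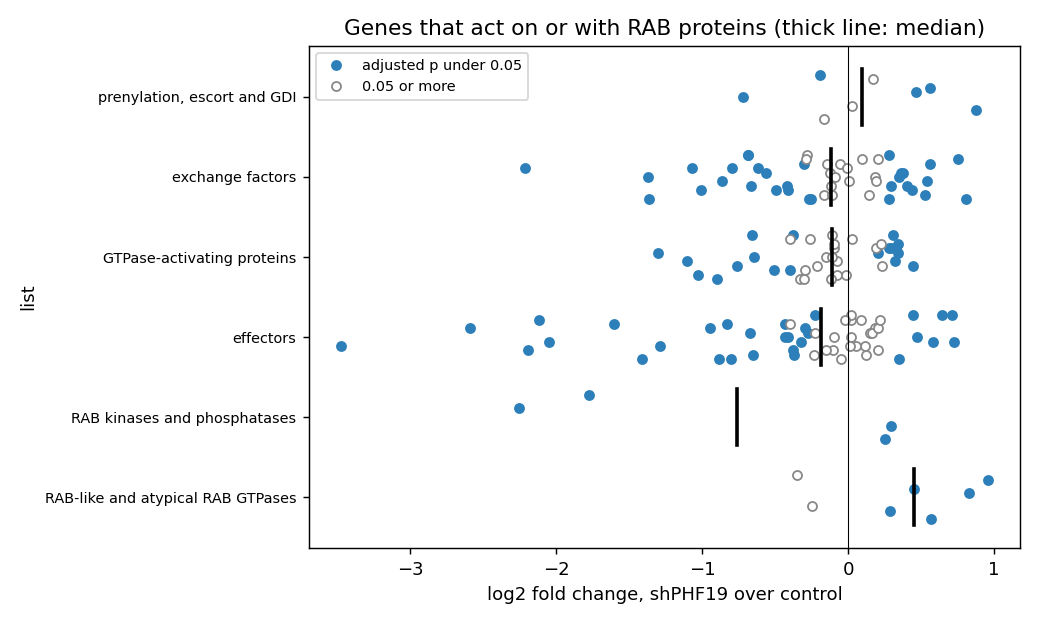
Log2 fold change (shPHF19 over control, x axis) of each of the 155 tested genes that act on or with RAB proteins, by class; filled points passed the test, open points did not, and thick lines are class medians. Effectors hold the gene with the largest fall (OPTN, -3.47). Of the 7 RAB-like genes, 5 were called higher under TMM scaling (29.4% of all genes) and 2 with library totals only (19.9% of all genes).

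The kinases and phosphatases of RAB proteins were called in 4 of 4 tested, 2 higher and 2 lower, where 60.2% of all genes were called. LRRK2, a kinase of RAB8 and RAB10, had 1.11, 1.04 and 0.826 CPM in shPHF19 cells and 5.35, 3.6 and 5.32 CPM in control cells (-2.25, edgeR adjusted p = 9.46e-08), and the phosphatase PPM1M fell as well (-1.77). PPM1H, a phosphatase that reverses the action of LRRK2, and LRRK1, named to complete the 4, were higher (0.30 and 0.25), but neither passed with library totals only or with upper-quartile factors. RAB-like genes were higher in 5 of 7 and lower in 0 (71.4% and 0%, against 29.4% and 30.9% of all genes). They were led by RABL6 (0.96), RABL2B (0.83) and CRACR2A (0.57), a large RAB with a calcium sensor domain. RABL2B has a near-identical copy, RABL2A, which did not pass (-0.35), so its count depends on how shared reads were treated.

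The authors' deposited table of differential genes lists 26 of the RAB genes, 9 as higher and 17 as lower. All 26 were also called here with the same sign, and the log2 fold changes of the authors' deposited table differ from those given here by at most 0.25. That table comes from the same libraries and its largest adjusted p is 0.00993. The overlap is therefore not an independent check.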

How the data were processed

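RNA-seq libraries were made from total RNA of Kasumi-1 cells with the KAPA Hyper Prep kit, per the labels' protocols. The authors deposited whole-number counts per gene symbol, not normalized (26410 rows, 6991 without a count). HISAT2 2.1.0, HTSeq 0.11.2 and hg38 are named in the submitters' processing notes, while no source used here states the annotation or strand setting. A second table deposited by the authors gives, for 5740 genes, a mean normalized signal, log2 fold changes, their standard errors (a score per gene) and p-values, with a largest adjusted p of 0.00993.

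The test was that of edgeR 4.0.16 under R 4.3.3 (filterByExpr, TMM, robust quasi-likelihood F test, group as the only term), with Benjamini-Hochberg adjustment over 13014 genes and a threshold of 0.05. The biological coefficient of variation was 0.0915. Between replicates, chi-square per degree of freedom was 4.63 to 11.7, so each library counted as 1 replicate. RPKM are CPM per kb of the union of exons in GENCODE 29 (GRCh38), and comparisons of genes use them. Alternatives used DESeq2 1.42.0, limma 3.58.1 and other scalings, filters and left-out libraries. RAB genes and lists were chosen with earlier results of these data known. Every library is given for RAB genes changed at least 2-fold, the 2 smallest p-values of a role, families called both ways, the 5 highest per length and those nearest the threshold, and up to 3 genes are named per partner list. Single markers of 1 list are not reported here.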

Additional observations from a re-analysis of the deposited data

How the results depend on the processing

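Over 14 alternatives the RAB genes tested (46 with the filter of 1 CPM in 3 libraries, otherwise 48) gave 7 to 12 higher and 20 to 26 lower calls. The 9 genes called with a change of at least 2-fold kept their direction and call under all 14, although RAB8B (-0.95), RAB27A (-0.999), RAB27B (-0.90) and RAB3A (0.92) were under 2-fold with the length and GC trends removed, an alternative chosen after seeing the data, and RAB3A (0.96) also with library totals only. With library totals only there were 7 higher RAB genes, 5 higher exchange factors, 1 higher and 21 lower GAPs, 0 higher kinases and phosphatases and 2 higher and 1 lower RAB-like genes; with upper-quartile factors, 4 higher GAPs, 0 higher kinases and phosphatases and 3 higher and 1 lower RAB-like genes. Lower genes of prenylation, escort and GDI numbered 1 with DESeq2, without an expression filter, with the replicate block and with the trends removed, and 1 to 2 when 1 library was left out; higher kinases and phosphatases numbered 0 to 2 then. Effectors called higher numbered 12 with the trends removed. Over all genes 19.9% were higher and 43.2% lower with library totals only, and 24.5% and 36.7% with upper-quartile factors. With the trends removed, 32.7% of all genes were higher and 33.2% lower.

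Signs turned for 10 RAB genes, in fits that did not pass the test there. With library totals only log2 fold changes were -0.19 for RAB9A, -0.16 for RAB23, -0.0547 for RAB35 and -0.18 for RAB40B, and with upper-quartile factors -0.0842 for RAB9A, -0.077 for RAB40B and -0.0531 for RAB23. With the trends removed RAB11B was at -0.0069, RAB14 at 0.041, RAB18 at 0.16, RAB21 at 0.0759, RAB30 at 0.40, RAB35 at -0.0424 and RAB40B at -0.0428. RAB30 was at 0.0101 with DESeq2, 0.0765 with limma-voom, 0.0053 without a filter and 0.0487 with the replicate block, and RAB40C at 0.0213 with DESeq2, 0.0194 without a filter and 0.0012 with the block. With 1 library left out the values ran from -0.0787 to 0.11 for RAB9A, -0.17 to 0.0705 for RAB18, -0.10 to 0.22 for RAB23, -0.31 to 0.32 for RAB30, -0.12 to 0.15 for RAB40B and -0.0783 to 0.10 for RAB40C. The cause of these turns was not tested. At this depth RAB genes with a few counts a library could not be tested.

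Same-numbered libraries correlated at -0.164, -0.00655 and -0.0537 in their deviations from the group means. Deviations within a group of 3 libraries depend on each other, and values for different-numbered libraries are not given here. Whether replicate numbers pair the libraries therefore cannot be decided from these values. With the replicate block 10 RAB genes were higher and 21 lower, against 3555 higher and 3752 lower over all genes. RAB11B (0.22, edgeR adjusted p = 0.106) and RAB31 (-0.27, edgeR adjusted p = 0.0682) lost their calls with the block.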

Other observations

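RAB4B shares 36.8% of its exon bases with the readthrough rows MIA-RAB4B and RAB4B-EGLN2, and RAB4B and both readthrough rows had no count in any of the 6 libraries, while EGLN2 had 17 counts over all 6. RAB43, which shares 79.3% of its exon bases with ISY1-RAB43, was counted in every library (3.56, 5.05 and 4.13 CPM in shPHF19 cells, and 6.27, 8.13 and 7.20 CPM in control cells). How the counting treated reads shared by overlapping rows was not tested.

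Log2 fold changes had a Spearman correlation with exon length of -0.136 over the 48 RAB genes and -0.12 over all genes with a length, and with GC content of 0.108 and 0.173, as a description across genes that share libraries. The coding sequences of RAB40A and RAB40B were 89.5% identical, with an identical run of 43 bases, and RAB40A had no count.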
